A study of Homo sapiens with 9 samples.

Results

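Human chromosome 19 outside its zinc finger gene clusters was examined in CUT&Tag peak lists from A549 cells, a lung adenocarcinoma line. A peak was a member when its summit lay on chromosome 19 (hg19) and outside 7 windows, at 9200 to 10000 kb, 11600 to 12700 kb, 19700 to 24400 kb, 36600 to 38500 kb, 44300 to 45000 kb, 52300 to 54200 kb and 56000 to 59100 kb. This rule kept 407 of 6794 HA-BAZ2B peaks, 179 of 2389 WT peaks and 898 of 17018 H3K4me3 peaks on the assembled chromosomes, 1484 of 26201 in all. The rule used position alone and no measured value. Whether the windows hold the zinc finger clusters was not checked here, since no hg19 gene annotation was used.

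The series holds 9 libraries in 3 groups of 3 replicates, with 1 deposited peak list per group. The HA-BAZ2B group is A549 cells with an HA insertion at the 5' end of the endogenous BAZ2B gene, profiled with an anti-HA antibody. The H3K4me3 group is the same tagged cells profiled with an antibody against that histone mark. The WT group is untagged A549 cells profiled with the anti-HA antibody, so its peaks give the antibody's signal where no HA tag is present. The labels do not state whether the tagged line is 1 clone, and H3K4me3 was profiled in the tagged cells only. The protocols mention an siRNA transfection, which is tied to no library by its label, and spiked-in Drosophila chromatin. For H3K4me3 replicates 2 and 3 the antibody entry names another methylation state than the title does, and the titles were followed. Each list keeps the peaks of 1 library that at least 2 replicates shared, so the 3 lists carry no spread between replicates. All intervals below are 95% intervals over peaks and cover counting error only.

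Chromosome 19 is known as the most gene-dense and among the most GC-rich of the human chromosomes, and much of it is packed with CpG-island promoters. H3K4me3 is a histone mark laid down at active promoters. BAZ2B is a bromodomain protein that partners ISWI-type ATPases, enzymes that slide nucleosomes, and the title of the series links it to the suppression of G-quadruplex structures. CUT&Tag tethers a transposase to an antibody's target, so that sequenced fragments mark bound sites. In the RefSeq table used for context, which is on another build, chromosome 19 holds 1451 of 20037 protein-coding genes (7.24%) and 264 of 572 symbols of zinc finger genes.

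The members were dense in all 3 lists. The windows leave 44.9 Mb, which is 1.45% of the assembled chromosomes and held 5.99% of the HA-BAZ2B peaks, 7.49% of the WT peaks and 5.28% of the H3K4me3 peaks. There were 9.06 HA-BAZ2B peaks per Mb on chromosome 19 outside the windows and 2.08 per Mb on the other chromosomes. WT peaks stood at 3.98 per Mb on chromosome 19 outside the windows and 0.717 per Mb on the other chromosomes. H3K4me3 peaks stood at 19.99 per Mb there and 5.24 per Mb elsewhere. The median gap from one H3K4me3 peak to the next was 24.1 kb among the members, against 64.8 kb on the other chromosomes.

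The members' widths were close to those of the other chromosomes. HA-BAZ2B members spanned a median of 1159 bp (quartiles 776 and 1529.5 bp), against 1226 bp on the other chromosomes. WT members were narrower, with a median of 688 bp, against 637 bp on the other chromosomes. H3K4me3 members had a median width of 1153.5 bp, against 1134 bp. Fold enrichment, the authors' ratio of a peak's fragments to a background estimated for that library, had a median of 8.21 in HA-BAZ2B members and 8.13 on the other chromosomes. It was 6.03 in WT members and 6.44 elsewhere. In H3K4me3 members it was 8.25, against 9.10 on the other chromosomes and 10.97 inside the windows. The H3K4me3 members nearest to the window borders, 13 in all, had a median fold enrichment of 8.97. The 14 nearest H3K4me3 peaks inside had 11.2. Distances to the border had medians of 25.3 kb outside and 34.7 kb inside, and reached 3332 kb outside and 158 kb inside.

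Anti-HA peaks lay at H3K4me3 peaks almost without exception. Of the 407 HA-BAZ2B members, 402 (98.8%, exact interval 97.2 to 99.6%) overlapped an H3K4me3 peak, and over all chromosomes the share was 99.0%. Of the 179 WT members, 176 (98.3%, interval 95.2 to 99.7%) did, and over all chromosomes the share was 93.4%. The reverse shares were smaller. An HA-BAZ2B peak was present at 406 of the 898 H3K4me3 members (45.2%, interval 41.9 to 48.5%), with 39.5% over all chromosomes. A WT peak was present at 175 of the 898 (19.5%, interval 16.9 to 22.2%), with 13.1% over all chromosomes. Against the other chromosomes alone, the members' share was 5.91 percentage points higher for HA-BAZ2B (Newcombe interval 2.60 to 9.27) and 6.80 points higher for WT (interval 4.28 to 9.56). Inside the windows, the shares were 33.3% for HA-BAZ2B and 15.7% for WT. The members stood above these by 11.9 points for HA-BAZ2B (interval 4.42 to 18.8) and 3.80 points for WT (interval −2.33 to 8.93). Over all members together, both anti-HA lists were therefore more frequent at H3K4me3 peaks than on the other chromosomes, in tagged and untagged cells alike. This surplus lay on the long arm. There the difference from the other chromosomes was 14.7 points for HA-BAZ2B (interval 10.1 to 19.2) and 14.3 points for WT (interval 10.5 to 18.5). On the short arm it was −4.06 points for HA-BAZ2B (interval −8.54 to 0.682) and −1.74 points for WT (interval −4.43 to 1.65).

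The overlap of the 2 anti-HA lists was also higher than on the other chromosomes. Of the HA-BAZ2B members, 163 of 407 (40.05%, interval 35.3 to 44.99%) overlapped a WT peak, with 28.7% over all chromosomes. Of the WT members, 163 of 179 (91.1%, interval 85.9 to 94.8%) overlapped an HA-BAZ2B peak, with 81.0% over all chromosomes. Against the other chromosomes alone, these shares were 12.2 points higher (interval 7.45 to 17.2) and 10.9 points higher (interval 5.56 to 14.7). Inside the windows, 38.2% of HA-BAZ2B peaks overlapped a WT peak, and 81.25% of WT peaks overlapped an HA-BAZ2B peak. The members' differences from these were 1.81 points (interval −10.9 to 13.5) and 9.81 points (interval −1.28 to 26.7). The share of HA-BAZ2B peaks inside the windows was thus close to that of the members. The share of WT peaks inside them was near the 80.2% of the other chromosomes. Only 32 WT peaks lay inside the windows, so whether they differ from the members cannot be told. Sorted by what they carried, 162 H3K4me3 members had both anti-HA peaks (18.04%, against 10.9% on the other chromosomes). HA-BAZ2B alone was found at 244 (27.2%, interval 24.3 to 30.2%, against 28.4%), WT alone at 13 (1.45%, against 1.80%) and neither at 479 (53.3%, against 58.9%). The interval of the share with HA-BAZ2B alone thus spanned the value of the other chromosomes. The members' surplus lay in the H3K4me3 peaks that carried both, which were 24.9% on the long arm and 10.2% on the short arm. H3K4me3 peaks with both were the widest, with a median of 1382.5 bp, followed by those with HA-BAZ2B alone at 1318 bp, those with neither at 974 bp and those with WT alone at 632 bp.

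The share of H3K4me3 peaks with an anti-HA peak differed between the arms of the chromosome. This contrast was chosen after the values along the chromosome had been seen, so its size is a description. On the long arm, 258 of 478 H3K4me3 members carried an HA-BAZ2B peak (53.98%, interval 49.4 to 58.5%), and on the short arm 148 of 420 did (35.2%, interval 30.7 to 40.02%). The difference was 18.7 points (Newcombe interval 12.3 to 24.98). A WT peak was present at 129 of 478 on the long arm (26.99%, interval 23.1 to 31.2%) and at 46 of 420 on the short arm (10.95%, interval 8.13 to 14.3%), a difference of 16.04 points (interval 10.98 to 20.95). With both lists limited to equal length by their −log10 q, the WT difference turned to −1.03 points over 162 H3K4me3 peaks (interval −22.3 to 18.7), while the HA-BAZ2B difference was 16.7 points over 365. HA-BAZ2B members overlapped a WT peak in 46.3% on the long arm and 29.3% on the short arm. Where an H3K4me3 member had no WT peak, HA-BAZ2B was present at 39.8% on the long arm (interval 34.7 to 45.2%) and at 28.1% on the short arm (interval 23.6 to 32.9%).

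Set beside other chromosomes, the 2 arms lay at different places in the range. Among 17 other chromosomes with peaks enough on both arms, the long minus short difference in the HA-BAZ2B share ran between −15.1 and 11.03 points with a median of −2.04 points. In the WT share it ran between −8.86 and 8.91 points with a median of −1.37 points. None of the 17 had a larger absolute difference in either share than the members. The other chromosomes were taken whole, however. With its windows included, chromosome 19 had an HA-BAZ2B share of 48.96% on the long arm and 35.2% on the short arm, a difference of 13.8 points, which 2 of the 17 exceeded in size. Its WT difference was then 14.1 points, which none exceeded. Over 39 other chromosome arms, the HA-BAZ2B share ran between 27.7 and 51.7%, so none exceeded the long arm of chromosome 19 outside the windows, and 12 lay below the short arm. The whole long arm was exceeded by 4 of them. The WT share ran between 6.07 and 24.3% over those arms, again with none above the long arm, and 17 lay below the short arm. Inside the windows, the HA-BAZ2B share was 32.9% on the long arm and 34.5% on the short arm, a difference of −1.66 points (interval −16.6 to 12.03). The WT share inside the windows was 18.1% on the long arm and 9.09% on the short arm, a difference of 9.03 points (interval −2.75 to 17.7).

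The difference appeared segment by segment. The windows divide the chromosome into 7 stretches that hold peaks, numbered here along the chromosome, of which 1 to 3 hold all short-arm members and 4 to 7 all long-arm members. The HA-BAZ2B share was 37.9% in segment 1, 34.1% in segment 2 and 31.9% in segment 3. On the long arm it was 55.0% in segment 4, 59.7% in segment 5, 50.5% in segment 6 and 52.4% in segment 7. The lowest long-arm segment thus lay above the highest short-arm segment. The WT share was 13.2%, 12.2% and 7.50% in segments 1 to 3 and 21.3%, 35.07%, 24.8% and 23.8% in segments 4 to 7. The 2 lists shared the order of the arms and both had their highest segment in segment 5, from 38500 to 44300 kb. Segments 2 and 7 hold 41 and 42 H3K4me3 peaks, so their intervals are wide.

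**Figure D1:**
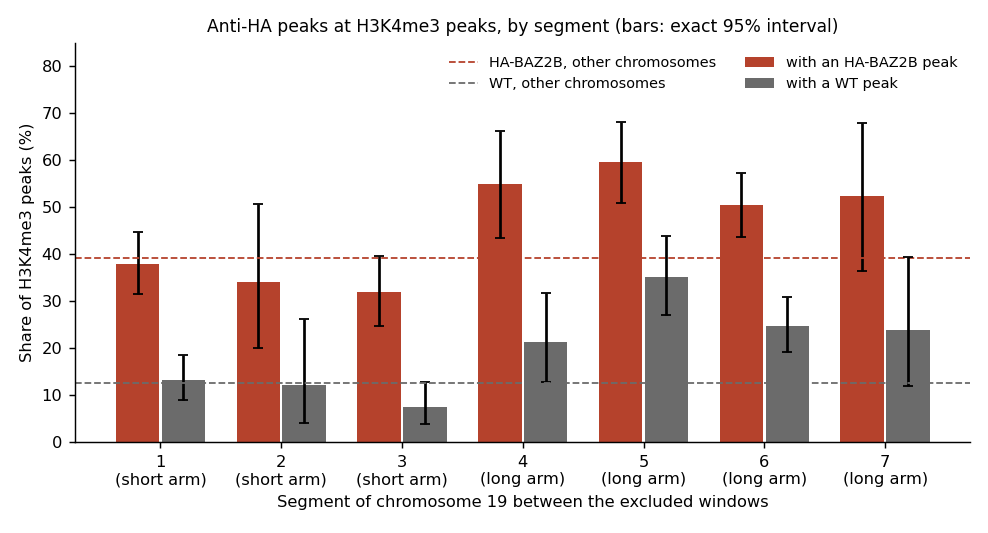
Share of H3K4me3 peaks that carry HA-BAZ2B or WT peaks (y axis, %) in each of 7 segments of chromosome 19 between the excluded windows (x axis), with exact 95% binomial intervals and dashed lines at the shares of the other chromosomes. The HA-BAZ2B shares of the 4 long-arm segments lie between 50.5 and 59.7%, above those of the 3 short-arm segments, which lie between 31.9 and 37.9%.

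The peak names in the deposited lists are numbered in the order in which the caller reported them in the source library. Gaps in the numbering between kept peaks thus show how many peaks there did not recur in another replicate. Numbers were counted from the first to the last kept peak of each segment, so peaks called beyond these are missed. The numbered totals are therefore minimum counts and the kept shares maximum shares, which the intervals do not cover. HA-BAZ2B replicate 3 had 413 numbered peaks on the long arm, of which 257 were kept (62.2%, interval 57.4 to 66.9%). On the short arm it had 395, of which 150 were kept (37.97%, interval 33.2 to 42.96%). By this count, the source library had nearly as many peaks on the short arm as on the long arm before the filter on recurrence. WT replicate 2 kept 131 of 311 on the long arm (42.1%) and 48 of 151 on the short arm (31.8%). H3K4me3 replicate 1 kept 478 of 608 on the long arm (78.6%) and 420 of 516 on the short arm (81.4%). On the other chromosomes the kept share was 43.2% for HA-BAZ2B, 25.2% for WT and 80.5% for H3K4me3. These shares were counted over whole chromosomes and not over segments, so they are not measured quite alike.

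By segment, HA-BAZ2B replicate 3 had 22.9, 21.9 and 21.3 numbered peaks per Mb in segments 1 to 3, of which 38.9%, 40.0% and 36.2% were kept. In segment 4, which includes the centromere, it had 6.23 per Mb, with 57.9% kept. Segments 5 to 7 had 20.0, 25.6 and 18.9 per Mb, with 67.2%, 60.4% and 64.7% kept. These values are minimum counts divided by the full length of the segment. By this count, HA-BAZ2B peaks called in the source library per Mb were alike in segments 1 to 3 and 5 to 7. The arms parted in the share found again in another replicate. WT replicate 2 had 10.0, 7.50 and 6.71 numbered peaks per Mb in segments 1 to 3 and 15.9, 18.6 and 11.7 in segments 5 to 7. Kept WT peaks were sparse, so these values can be too low by unlike amounts. The first kept WT peak lay 614 kb inside segment 2, and the last one lay 992 kb before the end of segment 6. How far the arms differed in WT before the filter can therefore not be told from them.

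**Figure D2:**
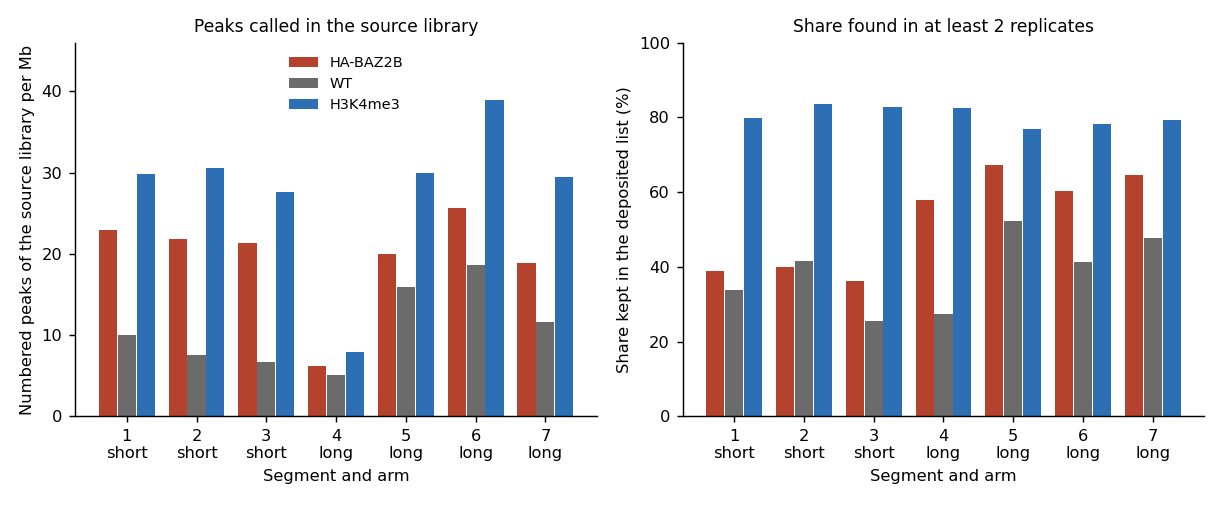
Left, peaks numbered in each list's source library per Mb in the 7 segments, counted between the outermost kept peaks and divided by the full segment length. Right, the share of those peaks (%) kept because at least 2 replicates held them. For HA-BAZ2B the left panel is level outside segment 4 and the right panel runs at 36.2 to 40.0% on the short arm and 57.9 to 67.2% on the long arm, while H3K4me3 stays between 77.0 and 83.7%.

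Strength of the peaks moved with the arm. Fragment counts at each summit were recovered from the deposited fold enrichment and −log10 p. The median HA-BAZ2B member had 64 fragments at its summit on the long arm and 34.5 on the short arm, with 51 on the other chromosomes. WT members had a median of 36 on the long arm and 28 on the short arm, with 22 on the other chromosomes. H3K4me3 members had 96 on the long arm and 70 on the short arm, with 71 on the other chromosomes. All 3 source libraries thus had a higher median at long-arm summits. Fragments within 10 kb of the summit followed the same order, with medians of 216 and 110 for HA-BAZ2B on the long and short arm, 180 and 104 for WT, and 315 and 225 for H3K4me3. Fold enrichment did not, since its background comes from these same 10 kb. Its median was 8.21 on the long arm and 8.26 on the short arm for HA-BAZ2B. It was 5.80 and 6.52 for WT, and 8.06 and 8.40 for H3K4me3. For H3K4me3 the medians hide a wider spread on the long arm. Its lower quartile of summit fragments was 41 on the long arm and 47.75 on the short arm, and its upper quartile 127.75 and 88. Numbers of copies of each arm in these cells were not measured in these files, so DNA copies and signal per copy cannot be told apart.

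By −log10 q, which weighs depth as well as enrichment, the top-ranked members were mostly on the long arm. Ranked over each whole list, the top 10% held 68 HA-BAZ2B peaks of the long arm (26.5% of its 257) and 2 of the short arm (1.33% of its 150). For WT it held 27 (20.6%) and 3 (6.25%). For H3K4me3 it held 110 (23.01%) and 12 (2.86%). Ranked by fold enrichment the arms stood otherwise. The top 10% then held 32 long-arm HA-BAZ2B members (12.5%) and 10 short-arm ones (6.67%). It held 1 long-arm WT member (0.763%) and 6 short-arm ones (12.5%). For H3K4me3 it held 36 (7.53%) and 27 (6.43%). The long arm led in every list by −log10 q, while by fold enrichment the short arm led in WT and the H3K4me3 shares lay close together.

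When H3K4me3 peaks were grouped by summit fragments, with groups cut so that the other chromosomes fill 5 about equal groups, the HA-BAZ2B share climbed with each group, on both arms and on the other chromosomes. The strongest group held 220 of the 478 long-arm H3K4me3 members (46.03%) and 32 of the 420 short-arm members (7.62%). Within it, HA-BAZ2B was present at 80.0% on the long arm, 75% on the short arm and 78.7% on the other chromosomes. In the weakest group the HA-BAZ2B share was 9.64% on the long arm, 4.08% on the short arm and 10.3% on the other chromosomes. For WT the strongest group stood at 42.3% on the long arm, 28.1% on the short arm and 29.8% on the other chromosomes.

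**Figure D3:**
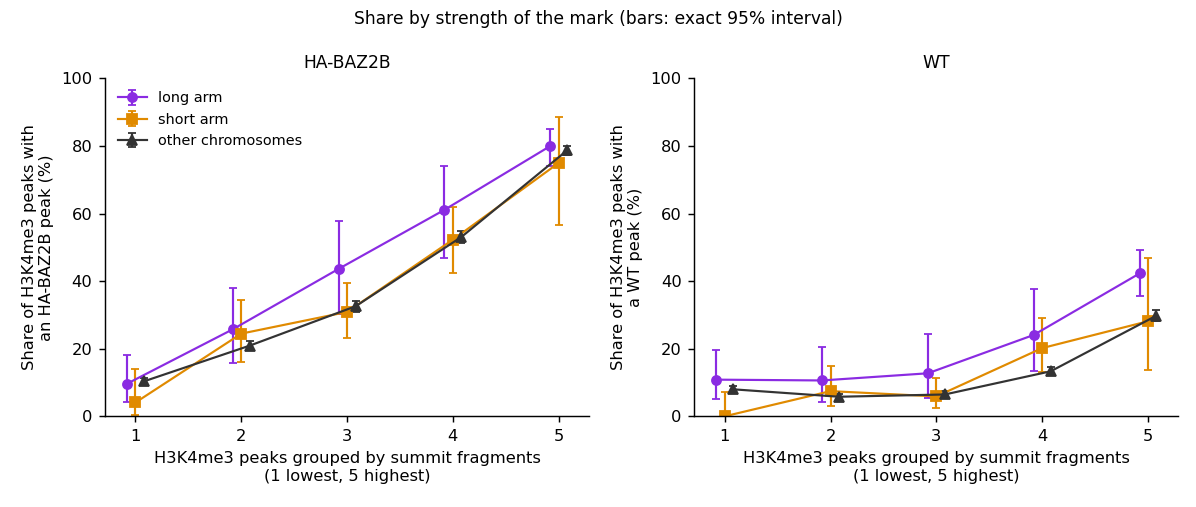
Share of H3K4me3 peaks overlapped by HA-BAZ2B (left) or WT (right), in %, against 5 groups of H3K4me3 peaks by summit fragments, for the long arm, the short arm and the other chromosomes, with exact 95% intervals. The intervals of the HA-BAZ2B curves overlap at each strength (80.0, 75 and 78.7% in group 5), and the long arm's WT curve lies above the others (42.3, 28.1 and 29.8%).

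Applying the other chromosomes' shares within 10 such groups to the members' own mix gave standardised shares. For HA-BAZ2B the standardised share was 52.3% on the long arm, with 53.98% observed, and 36.2% on the short arm, with 35.2% observed. With this grouping the HA-BAZ2B share was 1.71 points above its standardised value on the long arm, and on the short arm the difference from it was −0.999 points. For WT the standardised share was 19.9% on the long arm, with 26.99% observed, and 9.77% on the short arm, with 10.95% observed. The long arm's WT share was thus 7.06 points above its standardised value. The grouping mattered. By −log10 q the HA-BAZ2B share was standardised to 44.98% on the long arm and 35.6% on the short arm. By fragments in 10 kb it was 46.4% on the long arm and 42.7% on the short arm, so that observed minus standardised was 7.56 points on the long arm and −7.46 points on the short arm. By width it was 39.4% on the long arm and 41.4% on the short arm. By the number of H3K4me3 peaks in each Mb, both arms were standardised to nearly the same share, 44.996% on the long arm and 45.1% on the short arm. The arms' standardised shares were thus alike when grouped by density and unlike when grouped by fragments at the summit. H3K4me3 members themselves stood at 19.1 per Mb on the long arm and 21.1 per Mb on the short arm.

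Where an HA-BAZ2B member matched 1 H3K4me3 peak and no other, the 2 peaks were alike in place and extent. Over 395 pairs the HA-BAZ2B peak had a median width of 0.867 times that of its H3K4me3 peak, against 0.921 on the other chromosomes, and the summits lay a median of 79 bp apart. Widths were correlated across pairs at Spearman rho 0.87 and fold enrichments at 0.74, over peaks of 2 libraries of the same cells. Summit coverage, scaled to each library's genome-wide mean, had a median HA-BAZ2B to H3K4me3 ratio of 0.979 over the members (interval of the median 0.924 to 1.02). It was 1.03 on the long arm and 0.880 on the short arm. Against H3K4me3 at the same place, HA-BAZ2B coverage was thus somewhat lower on the short arm. The short-arm pairs were also the weaker ones, with a median scaled H3K4me3 coverage of 175, against 247 on the long arm. Whether the lower ratio goes with weaker peaks was not tested.

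WT peaks were narrower than the H3K4me3 peaks they matched, and followed them less closely than HA-BAZ2B peaks did. Over 174 pairs the WT peak had a median width of 0.534 times that of its H3K4me3 peak, with summits 64.5 bp apart and a rho of 0.46 for width and 0.27 for fold enrichment. The scaled coverage ratio of WT to H3K4me3 had a median of 0.342 in the members and 0.242 on the other chromosomes. Where an HA-BAZ2B member matched 1 WT peak, HA-BAZ2B coverage was the higher in 143 of 160 pairs, with a median ratio of 2.73 (interval of the median 2.33 to 3.01) against 4.42 on the other chromosomes. Median scaled coverage was 226 for HA-BAZ2B and 70.8 for WT in the members, and 226 for HA-BAZ2B and 47.2 for WT on the other chromosomes. That HA-BAZ2B median pools unlike arms. On the long arm the median coverage was 270.4 for HA-BAZ2B and 78.3 for WT, with a median ratio of 2.93. On the short arm it was 127 for HA-BAZ2B and 59.02 for WT, with a median ratio of 2.103. Both arms thus had higher WT coverage than the other chromosomes, and HA-BAZ2B coverage was higher than there on the long arm and lower on the short arm. These pairs exist only where a WT peak was called, and each line was represented by 1 library, so no replicate error can be given for the ratio. The peak names of the WT and H3K4me3 source libraries carry a tag that those of the HA-BAZ2B library lack, and its meaning is not stated, so a difference in library or run and the difference between the lists cannot be told apart in any of these coverage ratios.

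**Figure D4:**
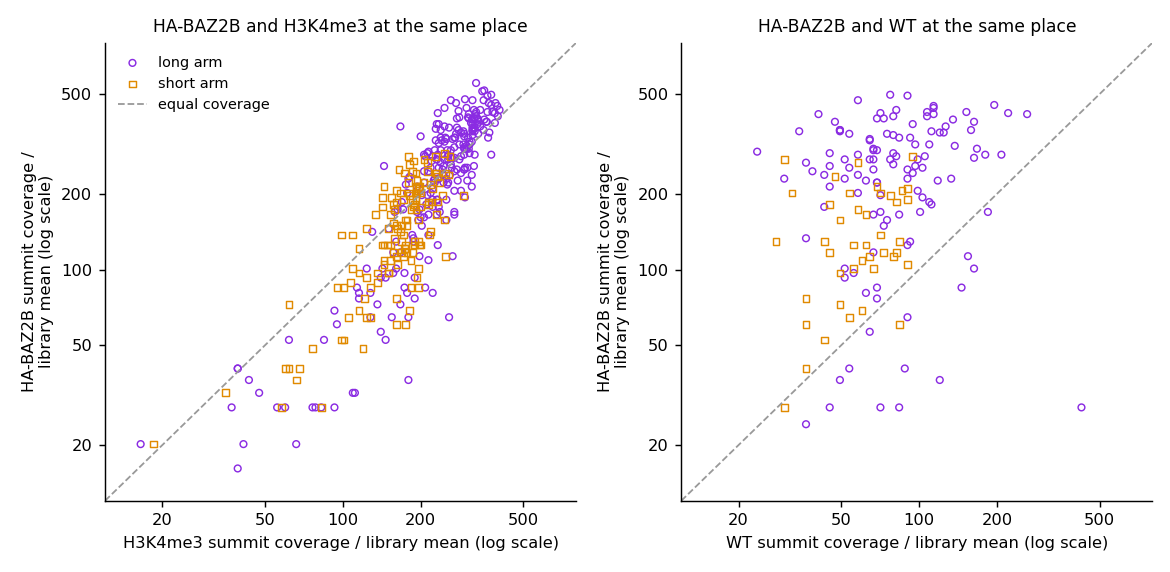
HA-BAZ2B summit coverage against H3K4me3 coverage (left, 395 pairs) and against WT coverage (right, 160 pairs) at matched peaks, each divided by the library's genome-wide mean, on log scales, with circles for the long arm, squares for the short arm and a dashed line at equal coverage. Against H3K4me3, 187 of 395 points lie above the line, 138 of 252 on the long arm and 49 of 143 on the short arm. Against WT, 143 of 160 points lie above it.

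Single pairs went far from these medians. The largest excess of HA-BAZ2B over WT was at 19q13.2 (chr19:40502374-40503537), where HA-BAZ2B had 73 summit fragments and WT had 11, a scaled ratio of 12.5. A nearby peak at 19q13.2 (chr19:40022654-40023734) had 103 HA-BAZ2B fragments and 19 WT fragments, a ratio of 10.2. At the other extreme, the peak at 19q11 next to the centromere (chr19:27731966-27732257) had 7 HA-BAZ2B fragments and 198 WT fragments, a ratio of 0.0665. That place had 27 H3K4me3 fragments. It is 1 of only 2 HA-BAZ2B members between 24400 and 28500 kb, a stretch that also held 2 WT and 2 H3K4me3 members.

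The highest HA-BAZ2B members by fold enrichment were narrow peaks within H3K4me3 peaks of high fold enrichment. The highest by fold enrichment lay at 19p13.3 (chr19:5790676-5791229), with a fold of 17.7. It had 53 fragments in HA-BAZ2B, 32 in the WT peak there and 96 in the H3K4me3 peak. These scale to 214, 68.7 and 198 times the library means. The next, at 19q13.2 (chr19:41945439-41945894), had a fold of 17.3, with 45 fragments in HA-BAZ2B and 52 in the deeper WT library. Once scaled, coverage there was 182 times the mean in HA-BAZ2B and 112 times in WT. This HA-BAZ2B peak sits in the H3K4me3 member with the highest fold (chr19:41945148-41945997, fold 18.8). The 3 further HA-BAZ2B members with a WT peak that led by fold were at 19q13.2 (chr19:39321745-39322494, fold 15.5), at 19p13.2 (chr19:8578599-8579125, fold 14.6) and at 19p13.3 (chr19:4247005-4247440, fold 14.6). All 5 were under 1 kb wide. By summit fragments they were not all strong. The last 2 had 29 and 31 HA-BAZ2B fragments, against a median of 50 over HA-BAZ2B members. Their H3K4me3 peaks had 82 and 72, against a median of 78 over H3K4me3 members.

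The 5 highest HA-BAZ2B members without a WT peak all lay on the long arm. The first, at 19q13.33 (chr19:50879599-50880123), had a fold of 17.2 and 71 HA-BAZ2B fragments, with 143 fragments in its H3K4me3 peak, and the nearest WT peak was 46.5 kb away. It was the 9th highest by fold of all HA-BAZ2B peaks. The others were at 19q13.32 (chr19:45988533-45989159, fold 16.1), 19q13.12 (chr19:36266283-36266982, fold 15.2), 19q13.32 (chr19:47852468-47853429, fold 14.6) and 19q13.33 (chr19:50650859-50651573, fold 14.05). Each lay on an H3K4me3 peak with 79 to 143 summit fragments, and their nearest WT peaks were 20.6 to 122 kb away. In the segments not yet named, the highest HA-BAZ2B member was at 19p13.2 in segment 2 (chr19:10713121-10713849, fold 12.2), at 19p13.12 in segment 3 (chr19:15235704-15236616, fold 13.5) and at 19q13.42 in segment 7 (chr19:55573649-55574585, fold 12.9).

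The 5 highest WT members that overlap an HA-BAZ2B peak all lay on the short arm, at 19p13.2 and 19p13.11. The first (chr19:7894386-7895070) had 26 fragments in HA-BAZ2B and 42 in WT, which scale to 105 and 90.1 times the library means. The second (chr19:11485313-11485770) had 32 fragments in HA-BAZ2B and 39 in WT, or 129 and 83.7 times. The others were chr19:18747174-18747805 (WT fold 10.1), chr19:11545723-11546538 (9.70) and chr19:17580365-17581350 (9.25). At these 5 peaks, chosen for their WT fold, HA-BAZ2B coverage was higher than WT coverage once scaled.

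WT members without an HA-BAZ2B peak numbered 16 of 179. The share that did overlap one was 91.1%, against 81.0% over all chromosomes. The highest, at 19q13.2 (chr19:41426784-41427632), had 42 WT fragments and a fold of 8.10 on an H3K4me3 peak with only 18 fragments, and the nearest HA-BAZ2B peak was 121 kb away. The next were at 19q13.33 (chr19:48460189-48460848, WT fold 6.19), 19q13.2 (chr19:43355318-43355691, 6.13), 19p13.3 (chr19:5173107-5173595, 5.79) and 19p13.3 (chr19:5686820-5687241, 5.77). Of these 5, 3 lay on H3K4me3 peaks with under 30 fragments, 1 on an H3K4me3 peak with 74 fragments and 1 on none.

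Only 5 HA-BAZ2B members had no H3K4me3 peak, and all were weak. They had 5 to 8 summit fragments, widths of 308 to 462 bp and folds of 4.15 to 6.52. They lay at 19p13.11 (chr19:18490984-18491340), 19q13.32 (chr19:47950422-47950873), 19q13.11 (chr19:33784225-33784686), 19p13.3 (chr19:4131288-4131595) and 19p13.2 (chr19:13274201-13274615). The distance to the nearest H3K4me3 peak was 5.60 to 27.6 kb. The one at 19q13.32 was also in the WT list, with 6 fragments in HA-BAZ2B and 17 in WT, which scale to 24.2 and 36.5 times the library means. The other 2 WT members off H3K4me3 were at 19p13.3 (chr19:5173107-5173595 and chr19:1062993-1063291).

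Wide or high H3K4me3 peaks did not always carry an HA-BAZ2B peak. The widest H3K4me3 member, 3490 bp at 19p13.13 (chr19:13950127-13953616), was the 6th widest of all H3K4me3 peaks and had no peak in either anti-HA list, with 96 summit fragments on 1000 fragments in 10 kb. The next widest, 3325 bp at 19q13.2 (chr19:41768367-41771691), had an HA-BAZ2B peak of 3246 bp with 112 fragments and a WT peak of 1165 bp with 91. These scale to 452 and 195 times the library means. At 19q13.42 (chr19:54692827-54695749), the third in width at 2923 bp, HA-BAZ2B spanned 3451 bp with 96 fragments and WT 1825 bp with 76. Scaled coverage there was 387 for HA-BAZ2B and 163 for WT. The fourth (chr19:41857269-41860111, 2843 bp) had an HA-BAZ2B peak of 2542 bp and no WT peak. The fifth, at 19p13.3 (chr19:1861991-1864827, 2837 bp), had an HA-BAZ2B peak of 712 bp. The next 2 widest H3K4me3 members with no anti-HA peak were also on the short arm, at 19p13.11 (chr19:17354548-17357157, 2610 bp) and 19p13.12 (chr19:14182869-14185430, 2562 bp).

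By fold enrichment, the second H3K4me3 member (chr19:45988435-45989219, 19q13.32, fold 18.4) had an HA-BAZ2B peak and no WT peak. The third, at 19q13.33 (chr19:50083268-50083934, fold 17.3, 92 fragments), had no anti-HA peak, with the nearest HA-BAZ2B peak 9.56 kb away. The fourth, at 19q13.11 (chr19:35417716-35418531, fold 17.1, 71 fragments), had none either, and its nearest HA-BAZ2B peak was 71.9 kb away. The fifth, at 19p13.3 (chr19:4246963-4247602, fold 16.6), carried both anti-HA peaks.

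Runs of consecutive H3K4me3 peaks in the same state are given as a description, and were not compared with what unordered peaks would give. The longest run with HA-BAZ2B was 9 consecutive H3K4me3 peaks over 244 kb at 19q13.2 (chr19:38754592-38998462), and a run of 8 spanned 221 kb in the same band (chr19:41724654-41945997). The longest run with WT was 6 peaks over 232 kb, also at 19q13.2 (chr19:41195887-41427649). The longest run with neither was 13 peaks over 185 kb at 19p13.3 (chr19:1082216-1267032), followed by 11 peaks over 168 kb at 19p13.2 (chr19:12876877-13044588). The longest HA-BAZ2B runs lay on the long arm and the longest empty runs on the short arm. The densest Mb was the same in all 3 lists, 49 to 50 Mb at 19q13.33, with 22 HA-BAZ2B, 16 WT and 42 H3K4me3 peaks. In the first Mb of the short arm, 28 H3K4me3 peaks stood beside 8 HA-BAZ2B and 2 WT peaks.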

How the data were processed

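The authors deposited 1 narrowPeak list per group, on hg19. The tools named are Bowtie2 2.4.5, MACS2 2.1.4, Picard, SAMtools 1.15.1 and bedtools, and the builds are hg19 and, for Drosophila, dm6, per the submitters' processing notes. Caller settings, any control library and any use of the spike-in for scaling are not stated in those notes or labels. Per the labels, peaks present in at least 2 replicates were kept, with the largest replicate file as the base. The peak names show that this was replicate 3 for HA-BAZ2B, replicate 2 for WT and replicate 1 for H3K4me3. The deposited fold enrichment is a ratio of each peak to the caller's background, as the authors' caller computed it. The deposited −log10 p and −log10 q values and the integer score are the authors' own values for each peak, and start, end and summit offset are positions deposited by the authors.

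Each summit's whole number of fragments and its background were solved from the deposited fold and −log10 p, assuming a pseudocount of 1 and a Poisson upper tail. All 17630 H3K4me3, 7027 HA-BAZ2B and 2451 WT rows gave a solution within 0.001, and 8 HA-BAZ2B rows gave 2. The backgrounds above the floor came out as whole fragment counts over 10 kb in 100% of rows (tolerance 0.05), never below the summit's own count, so they are read as taken from the same library. The genome-wide mean so recovered was 8.49 fragments per 10 kb in the HA-BAZ2B library, 15.6 in WT and 16.2 in H3K4me3. The HA-BAZ2B library was thus the shallowest, and WT and H3K4me3 were 1.84 and 1.91 times as deep. The solution was tested on simulated data.

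Overlap needed 1 bp. Shares have exact Clopper-Pearson intervals, differences Newcombe intervals and medians order-statistic intervals. With 1 list per group there was no test between groups and no p-value. Standardised shares apply the other chromosomes' share in each of 10 groups of H3K4me3 peaks to the members' mix. Arms and bands follow the hg19 table of circlize 0.4.16 under R 4.3.3, and the rest used Python 3.11.15, numpy 2.4.6, pandas 2.3.3, scipy 1.17.1 and statsmodels 0.14.6.

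Regions named were the 5 highest by fold of each anti-HA list with and without the other, all HA-BAZ2B and WT members off H3K4me3, the 5 highest and 5 widest H3K4me3 members, the 3 widest without an anti-HA peak, the highest HA-BAZ2B member of each segment, the densest 1 Mb bin and the neighbours of window borders. Coverage extremes and runs were added after their values were seen. Members, lists and rules were chosen with earlier results of these data known, and the arm contrast, the recovered fragments and groups by fragments or density after seeing values. Peaks are given by position, since an hg19 genome or annotation was not used here.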

Additional observations from a re-analysis of the deposited data

How the results depend on the processing

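Of 101 alternative values, 85 stayed within the 95% interval of the value as reported (for standardised shares, within the reach of the observed share's interval), 15 moved out of it and 1 reversed. With an overlap of 50% of the peak, the share of H3K4me3 members with HA-BAZ2B was 41.6% and with WT 10.4%, HA-BAZ2B members with WT 23.3%, WT members with HA-BAZ2B 84.4%, and the long minus short difference for WT 8.27 points. With both lists of equal length by −log10 q, these 4 shares were 73.97%, 42.6%, 45.9% and 38.5%, HA-BAZ2B on H3K4me3 66.3% and WT on H3K4me3 39.1%, where fewer peaks enter by construction. The long minus short difference for WT reversed to −1.03 points under equal length, and the cause was not tested. The HA-BAZ2B share of all members, standardised to 40.6% by −log10 q, was 44.8% by summit fragments, 44.7% by fragments in 10 kb and 45.03% by H3K4me3 density. H3K4me3 peaks per Mb were 21.95 without 24400 to 28500 kb. Leaving out each segment in turn gave long minus short differences of 16.5 to 21.8 points for HA-BAZ2B and 12.9 to 18.5 points for WT. Leaving out a replicate could not be run, since each group has 1 list and no value per replicate. No paired analysis was possible because the lists carry no replicate values.

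Depth limits these results in 2 ways. The HA-BAZ2B library was the shallowest, and a site counts as carrying a peak only where it recurred in another replicate, so a site without a peak is one where none was called at this depth.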
